A study of Mus musculus with 30 samples.

Results

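Transcription was compared between T2 and T1 cells of the MPP3 population of 24-month-old WTiMOS mice, with 3 libraries of T2 cells and 3 libraries of T1 cells out of 30 libraries in the series. The members were the genes that reached 1 TPM (a transcript level scaled for transcript length and for the total of the library) in at least 3 of the 6 libraries and that do not lie on the X or Y chromosome. Of 24421 listed genes 11317 passed the filter, 373 of these lay on X or Y, and 10944 were tested. RNA came from bone marrow progenitors sorted by flow cytometry, and both groups carried the genotype label WTiMOS, which the labels split into WTiMOS_T2 and WTiMOS_T1. The purpose stated for the series is the part that Bcl11a plays inside MPP3 cells and what an excess of it does to wild-type MPP3, with ages of 3 and 24 months, and KOiMOS mice as a further genotype. The labels do not say which alleles or reporters separate T2 from T1 cells, whether T2 and T1 cells came from the same mice, whether mice were pooled, or what the sex of the mice was. WTiMOS MPP3 of 3 months and WTiMOS MPP4 of 24 months, each again with 3 T2 and 3 T1 libraries, serve below to show where the 24-month MPP3 difference is unlike theirs.

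Multipotent progenitors stand between the blood stem cell and the committed lineages, and MPP3 is the subset known for its output of granulocytes and macrophages, while MPP4 is known for lymphoid output. Bcl11a is a zinc finger protein that represses transcription together with deacetylase, demethylase and nucleosome remodelling complexes. It is known for its need in B cell and plasmacytoid dendritic cell development, for a part in stem cell fitness, and for the silencing of embryonic and foetal globin genes in red cells. Blood stem cells and progenitors of old mice are known for a shift towards myeloid and platelet output.

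The libraries differed in sex-linked RNA before any other comparison. Summed over the Y chromosome genes Uty, Kdm5d, Ddx3y and Eif2s3y, RNA stood at 76.8, 54.0 and 59.5 TPM in the T2 libraries, while every T1 library listed 0. Xist, transcribed from the inactive X of females, was 18.0, 22.5 and 20.6 TPM in T2 against 60.8, 74.3 and 72.5 TPM in T1 (exact permutation test, two-sided, p = 0.1 for each, the smallest p that 3 against 3 libraries allow). Each T2 library thus held Y-linked RNA as well as Xist, while T1 libraries held Xist and no RNA of these Y genes. RNA of male cells was seen in T2 and not in T1. Genes of X and Y were left out of the tests, and any effect of this difference on other genes cannot be told apart from that between T2 and T1. The read depth is unknown, since TPM were deposited and each library sums to the same total, and 10939 to 11237 genes reached 1 TPM in a library. Libraries of one group correlated across genes at Pearson's r of 0.982 to 0.993, with T2 replicate 1 farthest from its group, and T2 with T1 libraries at 0.942 to 0.952. Nothing says that replicates came from separate mice, so p-values rest on a spread between libraries that may be technical alone. In such sorted pools, fewer cells of a type and less RNA per cell cannot be told apart.

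Markers of the sorting gate were present in both groups at the RNA level. Kit, the stem cell factor receptor, was 99.1, 88.2 and 87.1 TPM in T2 against 51.7, 70.4 and 62.0 TPM in T1, and Cd34 was 409, 372 and 370.1 TPM in T2 against 99.1, 106 and 92.5 TPM in T1. Ly6a, which encodes Sca-1, was 599, 558 and 542 TPM in T2 against 1027, 1010.4 and 1032 TPM in T1, and Cd48 was 1428, 1238 and 1331 TPM in T2 against 2070.3, 2057 and 2111 TPM in T1. No library of T2 overlapped those of T1 in any of these, with Kit and Cd34 higher in T2 and Ly6a and Cd48 lower. Of the markers that the usual MPP3 gate leaves out, Flt3 averaged 28.0 ± 2.72 TPM in T2 and 19.9 ± 0.34 TPM in T1 (mean ± SD, n = 3 libraries a group here and throughout), and Slamf1, below the filter, 0.872 ± 0.397 TPM in T2 and 0.859 ± 0.275 TPM in T1. Both groups thus held the RNAs of Kit, Sca-1 and CD48, with Slamf1 near 1 TPM.

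T2 and T1 cells differed in 4595 of the 10944 genes tested (42.0%), of which 3292 (30.1%) were higher and 1303 (11.9%) lower in T2 cells. Counts of list members given below stand beside these shares. A gene was called at an adjusted p below 0.05 in limma, which was fitted to log2(TPM + 1) of these 6 libraries with the Benjamini-Hochberg adjustment over all genes tested, and log2 changes are T2 minus T1 on that scale, on which genes near 0 appear to change less than they do. A change of at least 2-fold was reached by 1100 called genes, 662 higher and 438 lower, and changes of at least 8-fold were more often downward, with 15 higher and 41 lower. Over all genes the median was log2 0.18. Dividing each library by its median ratio to the others moved this median to 0.01, and the calls then split into 2061 higher (18.8%) and 2035 lower (18.6%). The 2061 and 1303 genes called higher and lower in both scalings are the calls that held under either scale, and 0 genes were called in opposite directions. The filter let in 213 genes through T2 alone and 159 through T1 alone, and these were bound to differ. Among genes named below, those let in through T2 alone include Hbb-bs, Prg2, Fcrla, Ms4a7, C1qa, Vcam1, Naaa, Epor, Mcpt4, Tnfrsf17 and Sdc1. Those let in through T1 alone include Dpm1-adnp, Wwtr1, Ebf1, Cd4 and Col1a2.

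**Figure D1:**
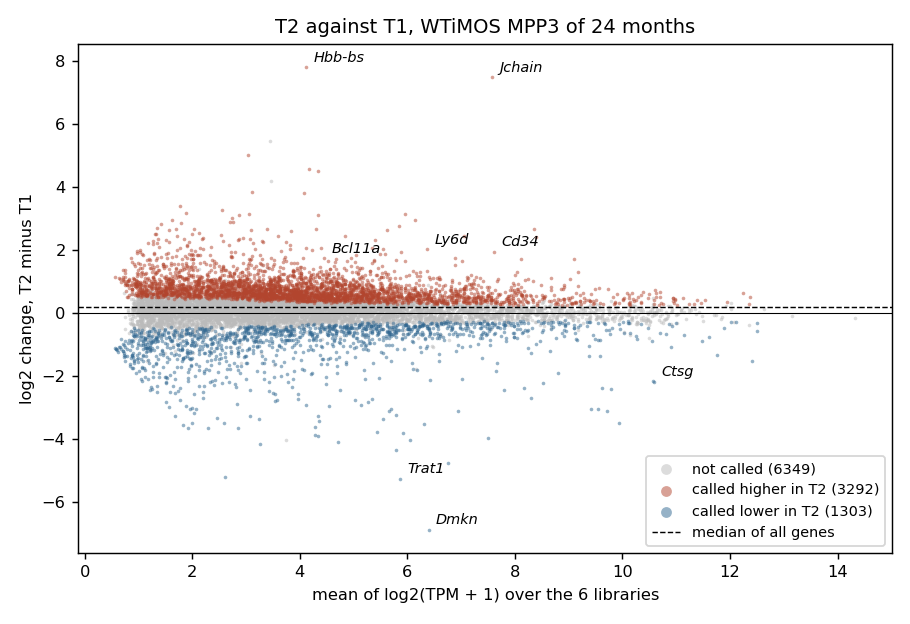
Log2 change of T2 minus T1 cells (vertical axis) against the mean of log2(TPM + 1) over the 6 libraries (horizontal axis), 1 point per gene tested, in red where called higher in T2 and in blue where called lower. The dashed line is the median of all genes at log2 0.18, with Hbb-bs and Jchain at the top and Dmkn at the bottom.

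Bcl11a itself (chromosome 11, 24078056 to 24174123, plus strand, GRCm38, whole gene) was higher in T2 cells at the RNA level, and so were the RNAs of several proteins that work with it. It stood at 44.4, 39.8 and 33.2 TPM in T2 against 8.52, 12.9 and 12.1 TPM in T1. The lowest T2 library lay well above the highest T1 library, and the change was log2 1.73 ± 0.17 (SE, adjusted p = 1.55e-05). Of 20 tested genes in the list of Bcl11a and its corepressors 9 rose, 1 fell and 10 did not pass, with a median of log2 0.45 beside 0.18 for all genes. Of all tested genes 30.1% were called higher and 11.9% lower. With each library left out, 6 to 12 genes of the list were higher. Mta2, a subunit of the NuRD deacetylase complex, was 16.4, 23.5 and 22.4 TPM in T2 against 8.56, 8.89 and 7.43 TPM in T1 (log2 1.22, adjusted p = 0.000142). Chd4, the remodelling ATPase of the same complex, averaged 26.6 ± 4.10 TPM in T2 and 15.3 ± 0.404 TPM in T1 (log2 0.75). Smarcc1, a core subunit of SWI/SNF remodellers, averaged 41.6 ± 1.95 TPM in T2 and 21.2 ± 0.48 TPM in T1 (log2 0.94), and Dnmt1, the maintenance DNA methyltransferase, 57.7 ± 5.21 TPM in T2 and 36.7 ± 2.21 TPM in T1 (log2 0.64). Mta1, Mbd3, Smarca4 and Ring1 also rose, and Ncor1, a nuclear receptor corepressor, was the gene that fell, a call that was lost without T1 replicate 1 or 3 or T2 replicate 2. After median-ratio rescaling 5 genes of the list were higher and 1 lower, beside 18.8% higher and 18.6% lower of all tested genes.

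The largest increases were led by Hbb-bs, Jchain and Prg2, genes known from red cells, plasma cells and eosinophils, and the largest decreases by Dmkn, Trat1 and the readthrough entry Dpm1-adnp. The 14 genes each way shown were the largest among called genes with at least 5 TPM in the higher group and no overlap of libraries, a separation that 37.3% of all tested genes showed with T2 higher and 15.5% with T2 lower. Hbb-bs, an adult beta globin gene (chromosome 7, 103826534 to 103828096), was 244, 280.5 and 256 TPM in T2 against 0, 0.538 and 0 TPM in T1. Jchain, the joining chain of secreted IgA and IgM (chromosome 5, 88519809 to 88527891), was 3080.0, 2259 and 2392 TPM in T2 against 14.5, 11.9 and 13.3 TPM in T1. All 3 T2 libraries held Jchain among their most abundant transcripts and no T1 library came near them, a change of log2 7.49 ± 0.13 (adjusted p = 7.24e-12). Prg2, a granule protein of eosinophils, was 42.4, 48.0 and 47.6 TPM in T2 against 0.829, 0.481 and 0.117 TPM in T1 (log2 5.02), and Pglyrp1, a peptidoglycan recognition protein, was 60.8, 62.6 and 63.7 TPM in T2 against 3.29, 3.34 and 3.77 TPM in T1 (log2 3.83). Trf, which encodes transferrin, averaged 58.7 ± 5.88 TPM in T2 and 5.86 ± 0.991 TPM in T1 (log2 3.13). Ms4a7, a membrane protein of macrophages, averaged 10.6 ± 3.94 TPM in T2 and 0.254 ± 0.288 TPM in T1 (log2 3.18). The remaining genes of this set were Hbb-bt, Hbb-b2, Tpsb2, Fcrla, C1qc, Cma1, C1qb and Ngp, which are given with their lineages below.

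Downwards, Dmkn, known as a secreted protein of skin (chromosome 7, 30763756 to 30781063), was 6.47, 6.74 and 7.03 TPM in T2 against 894, 934 and 929 TPM in T1. T1 cells held it among their abundant transcripts while every T2 library held little of it (log2 -6.89 ± 0.10, adjusted p = 1.87e-12). Trat1, an adaptor that stabilises the T cell receptor complex (chromosome 16, 48730774 to 48772021), was 7.47, 8.15 and 9.86 TPM in T2 against 349, 344 and 396 TPM in T1 (log2 -5.27). Mrgpra2b and Mrgpra2a, receptor genes that are near-identical copies whose reads may have been split between them, averaged 20.3 ± 5.25 and 11.5 ± 3.58 TPM in T2 against 566 ± 28.6 and 251 ± 16.3 TPM in T1. Ms4a4c averaged 5.29 ± 0.684 TPM in T2 and 107 ± 4.26 TPM in T1, and Scin, an actin-severing protein, 4.35 ± 1.82 TPM in T2 and 77.7 ± 5.49 TPM in T1. Ly6k, a surface protein of the Ly6 family, averaged 10.6 ± 1.19 TPM in T2 and 159.6 ± 14.6 TPM in T1, and Clec5a, a myeloid lectin receptor, 1.04 ± 0.239 TPM in T2 and 24.6 ± 2.61 TPM in T1. These 4 genes changed by log2 -4.11, -3.93, -3.79 and -3.65. Dpm1-adnp, a readthrough entry over Dpm1 and Adnp, was listed at 0 in all T2 libraries and at 18.4, 35.1 and 73.6 TPM in T1, and it shares its sequence with both genes, so its value is uncertain. The remaining decreases of this set, Vpreb2, Hp, Clec12a, Ly6c1 and Igll1, are given with their lineages below. The call of Dpm1-adnp was lost in a fit of all 30 libraries of the series (adjusted p = 0.0739).

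**Figure D2:**
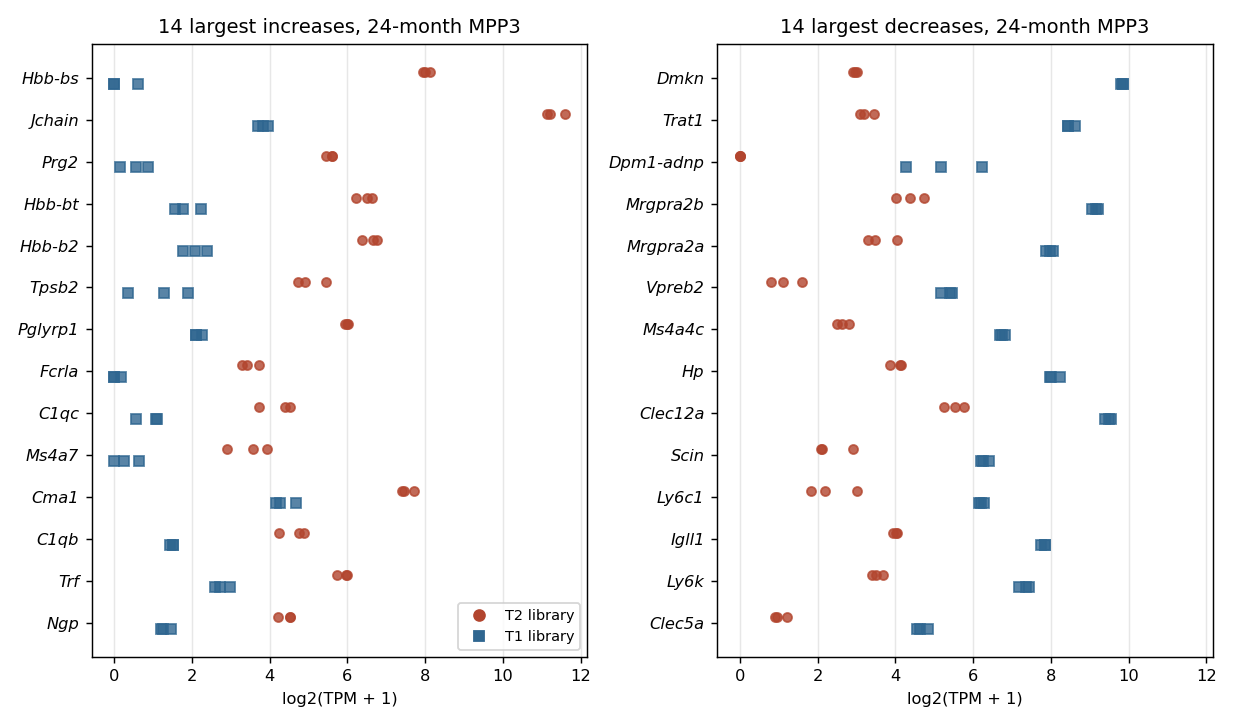
Log2(TPM + 1) of each library for the 14 genes with the largest increase and the 14 with the largest decrease in T2 cells, with T2 libraries as red circles above T1 libraries as blue squares. No gene has overlapping groups, and Hbb-bs, Jchain and Dmkn show the widest gaps.

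Most of the tested regulators of stem cells were higher in T2 cells. Of 32 tested members 23 rose, 4 fell and 5 did not pass, with a median of log2 0.70, and the counts were 18 and 5 after rescaling. Hlf, a transcription factor that marks blood stem cells, was 43.8, 35.9 and 31.1 TPM in T2 against 6.80, 11.0 and 7.60 TPM in T1 (log2 2.02 ± 0.18, adjusted p = 8.61e-06). Gata2, needed for stem cell and mast cell programmes, was 37.0, 43.4 and 39.1 TPM in T2 against 11.0, 14.9 and 10.3 TPM in T1 (log2 1.66, adjusted p = 9.1e-06). For both, every T2 library exceeded every T1 library by a wide margin. Hoxa9, a homeobox factor of progenitors, averaged 46.0 ± 5.88 TPM in T2 and 17.1 ± 1.64 TPM in T1 (log2 1.37). Its partner Meis1 averaged 57.3 ± 3.73 TPM in T2 and 20.8 ± 1.94 TPM in T1 (log2 1.42). Txnip, a thioredoxin-binding protein linked to quiescence, averaged 163 ± 3.38 TPM in T2 and 78.3 ± 8.41 TPM in T1 (log2 1.05). Hoxa5, Hoxa7, Mecom, Erg, Fli1, Mycn and the cell cycle inhibitors Cdkn1b and Cdkn1c rose with them. The members that fell were Runx1, the cell cycle inhibitor Cdkn1a and the immediate early nuclear receptors Nr4a1 and Nr4a2.

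Surface proteins of stem cells and progenitors went both ways, with 13 of 26 higher and 6 lower. Procr, the protein C receptor of stem cells, was 15.1, 17.6 and 17.0 TPM in T2 against 1.91, 2.61 and 2.64 TPM in T1, and Esam, an adhesion molecule of stem cells and endothelium, was 13.4, 16.0 and 16.2 TPM in T2 against 1.70, 2.28 and 2.85 TPM in T1. Both were low in every T1 library and changed by log2 2.38 and 2.32 (adjusted p = 8.73e-07 and 2.28e-06). Cd34 changed by log2 1.94 ± 0.10 (adjusted p = 5.87e-08). Kit, Flt3, Tek, Tie1, Itga2b, Cd27, Cd93, Robo4 and Alcam rose too. Ly6a, Ly6e, Cd48, Cxcr4 and Itgb3 fell. Procr and Esam are also made by endothelium. Its defining gene Cdh5 was 0, 0.315 and 0.114 TPM in T2 against 0, 0.153 and 0 TPM in T1, and Kdr 0.147, 0.233 and 0.41 TPM in T2 against 0.192, 0.159 and 0.178 TPM in T1, but Emcn, Fabp4 and Igfbp7 of the stromal and endothelial list rose (values below), and the part of endothelial cells in these levels was not tested.

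Genes reported to rise with age in blood stem cells did not move in one direction. Of 22 tested 8 rose and 9 fell, with a median near 0, and 5 fell under a filter of 5 TPM. Mt1, a metallothionein, averaged 267 ± 24.7 TPM in T2 and 612 ± 28.2 TPM in T1 (log2 -1.20), whereas Dnmt3b, a de novo DNA methyltransferase, averaged 22.4 ± 1.48 TPM in T2 and 8.25 ± 1.22 TPM in T1 (log2 1.34). Itgb3, the platelet integrin beta chain, averaged 3.34 ± 0.0602 TPM in T2 and 9.13 ± 0.422 TPM in T1 (log2 -1.22). Gda, a guanine deaminase, was 0.95, 1.10 and 0.817 TPM in T2 against 7.71, 10.2 and 8.56 TPM in T1 (log2 -2.32), and Wwtr1, a coactivator of the Hippo pathway, 0.277, 0.288 and 0.499 TPM in T2 against 3.19, 3.88 and 2.91 TPM in T1 (log2 -1.67). Selp and Clu did not pass the test (log2 0.19 and -0.42), and Vwf, the platelet adhesion protein, was below the filter at 0.144, 0.142 and 0.173 TPM in T2 against 0.0982, 0.139 and 0.151 TPM in T1.

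Granule and neutrophil primed genes were the list with the lowest median. Of 29 tested 19 fell and 4 rose, with a median of log2 -1.05, and their summed level was 12637 to 13362 TPM in T2 libraries against 27872 to 30436 TPM in T1 libraries. Ctsg, cathepsin G of primary granules, was 696, 724 and 733 TPM in T2 against 3439, 3098 and 3297 TPM in T1 (log2 -2.19 ± 0.08, adjusted p = 5.46e-09). Gstm1, a glutathione transferase (chromosome 3, 108012255 to 108017973), was 283, 255 and 318 TPM in T2 against 2643, 2266 and 2548 TPM in T1 (log2 -3.12, adjusted p = 2.18e-09). Each T1 library held several times the level of any T2 library in both genes. Hp, haptoglobin, was 13.5, 16.7 and 16.3 TPM in T2 against 303, 249.9 and 255 TPM in T1 (log2 -4.03), and Clec12a, an inhibitory lectin of myeloid cells, was 53.8, 36.9 and 45.4 TPM in T2 against 743, 678 and 722 TPM in T1 (log2 -3.96). Mgst1, a microsomal glutathione transferase, averaged 125 ± 8.89 TPM in T2 and 656 ± 16.7 TPM in T1 (log2 -2.39). The granule proteases Elane and Prtn3 also fell, by 3.51 and 1.36 on the log2 scale. The members that rose went against the rest of the list. Mpo, the peroxidase of the same granules, averaged 281 ± 23.4 TPM in T2 and 195 ± 14.5 TPM in T1 (log2 0.53, adjusted p = 0.0018), and the others were Srgn, a granule proteoglycan, the hexokinase Hk3 and the factor Myb. The number of increases was 2 without T1 replicate 1 or 3 and after rescaling.

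Genes of mature neutrophils fell in 10 and rose in 3 of 17 tested members, with summed levels of 1566 to 1594 TPM in T2 libraries against 4659 to 4713 TPM in T1 libraries. S100a8, a calcium-binding alarmin, was 206, 264 and 237 TPM in T2 against 1846, 2150.2 and 1882 TPM in T1 (log2 -3.05, adjusted p = 3.49e-09). Its partner S100a9 averaged 107 ± 14.8 TPM in T2 and 381 ± 33.2 TPM in T1 (log2 -1.83). Ifitm6 averaged 5.69 ± 1.96 TPM in T2 and 62.0 ± 4.42 TPM in T1, and Wfdc21 11.6 ± 2.23 TPM in T2 and 83.4 ± 5.15 TPM in T1. Ngp, a protein of secondary granules, went the other way and was 21.9, 17.7 and 21.8 TPM in T2 against 1.75, 1.37 and 1.31 TPM in T1 (log2 3.12). Retnlg and Padi4 rose with Ngp.

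Most monocyte and macrophage genes fell, 15 of 26 tested, while 7 rose. Ly6c2, the Ly6C antigen of classical monocytes, was 241, 267 and 262 TPM in T2 against 2243, 2161 and 2044 TPM in T1 (log2 -3.06 ± 0.09, adjusted p = 1.03e-09), and Ly86, the MD-1 partner of RP105, was 17.1, 17.6 and 16.5 TPM in T2 against 163, 168 and 177 TPM in T1 (log2 -3.24). F13a1, coagulation factor XIII of monocytes, was 2.01, 1.43 and 1.70 TPM in T2 against 25.4, 26.9 and 23.9 TPM in T1 (log2 -3.28). Ly6c1 averaged 4.41 ± 2.35 TPM in T2 and 73.4 ± 3.20 TPM in T1, and as a near copy of Ly6c2 it may share its reads. Lgals1, a galectin, averaged 343 ± 6.78 TPM in T2 and 1802 ± 88.6 TPM in T1 (log2 -2.39). Csf1r, Ccr2, Cd68, Cd14, Tyrobp, Fcer1g and Adgre1 fell with them.

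Among those that rose were genes known from resident macrophages of the marrow. C1qb and C1qc, chains of the first complement component that lie side by side on chromosome 4 (136880129 to 136886187 and 136889804 to 136893065), were among them. C1qb was 18.1, 26.1 and 28.3 TPM in T2 against 1.70, 1.83 and 1.86 TPM in T1. C1qc was 12.1, 21.8 and 19.9 TPM in T2 against 1.12, 0.487 and 1.13 TPM in T1. Every T2 library held many times the level of any T1 library, with changes of log2 3.14 and 3.29 (adjusted p = 2.2e-07 and 1.39e-06). C1qa, the third chain, averaged 5.77 ± 2.12 TPM in T2 and 0.353 ± 0.114 TPM in T1, and Vcam1, an adhesion molecule of marrow macrophages and endothelium, 9.85 ± 4.15 TPM in T2 and 0.618 ± 0.234 TPM in T1. Aif1, Apoe and the protease Ctss rose as well. The monocyte and macrophage list as a whole summed to 2039 to 2152 TPM in T2 libraries against 5963 to 6241 TPM in T1 libraries, and Adgre1, which encodes the macrophage antigen F4/80, fell and averaged 6.50 ± 1.52 TPM in T2 and 17.8 ± 1.92 TPM in T1. Of the 30 listed genes 26 averaged at least 1 TPM in T2 and 24 in T1, and the part of macrophages in the sorted cells was not tested.

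Promoters are shown for the C1q pair, which rose together, and for Vpreb2 and Igll1 of the surrogate light chain, which fell together (values below), because these 4 hold the motif core that Bcl11a is reported to bind in globin promoters, and for Jchain and Dmkn, which had a large rise and the largest fall. Each is the 250 bases before the start of transcription from RefSeq, on the build GRCm38.p6, written on the strand of the gene. Capitals mark TGACCA or its reverse complement TGGTCA, searched on both strands.
C1qb (chr4:136886201-136886450, minus strand): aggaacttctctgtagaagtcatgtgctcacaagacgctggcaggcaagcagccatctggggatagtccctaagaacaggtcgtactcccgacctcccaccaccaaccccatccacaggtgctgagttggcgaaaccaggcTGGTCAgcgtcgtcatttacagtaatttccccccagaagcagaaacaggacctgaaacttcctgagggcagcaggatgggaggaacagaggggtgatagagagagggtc
C1qc (chr4:136892915-136893164, minus strand): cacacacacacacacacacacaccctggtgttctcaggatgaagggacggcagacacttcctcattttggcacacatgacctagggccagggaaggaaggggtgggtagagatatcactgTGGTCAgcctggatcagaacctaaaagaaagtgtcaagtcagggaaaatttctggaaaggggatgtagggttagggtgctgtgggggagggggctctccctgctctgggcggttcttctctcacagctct
Vpreb2 (chr16:17980315-17980564, plus strand): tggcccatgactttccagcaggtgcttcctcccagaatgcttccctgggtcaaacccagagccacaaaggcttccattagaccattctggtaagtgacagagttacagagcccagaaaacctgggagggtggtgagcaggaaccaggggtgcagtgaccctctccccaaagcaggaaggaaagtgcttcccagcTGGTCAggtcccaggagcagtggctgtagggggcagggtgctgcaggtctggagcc
Igll1 (chr16:16863986-16864235, minus strand): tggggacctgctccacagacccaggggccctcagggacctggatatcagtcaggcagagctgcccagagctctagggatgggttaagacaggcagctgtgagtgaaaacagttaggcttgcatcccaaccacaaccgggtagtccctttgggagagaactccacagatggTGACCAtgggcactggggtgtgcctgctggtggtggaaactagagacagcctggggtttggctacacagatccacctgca
Jchain (chr5:88527898-88528147, minus strand): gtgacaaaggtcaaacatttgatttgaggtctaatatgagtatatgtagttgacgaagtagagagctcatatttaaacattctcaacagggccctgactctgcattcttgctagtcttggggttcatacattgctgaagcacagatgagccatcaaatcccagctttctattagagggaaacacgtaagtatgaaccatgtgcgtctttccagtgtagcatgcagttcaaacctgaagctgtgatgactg
Dmkn (chr7:30763506-30763755, plus strand): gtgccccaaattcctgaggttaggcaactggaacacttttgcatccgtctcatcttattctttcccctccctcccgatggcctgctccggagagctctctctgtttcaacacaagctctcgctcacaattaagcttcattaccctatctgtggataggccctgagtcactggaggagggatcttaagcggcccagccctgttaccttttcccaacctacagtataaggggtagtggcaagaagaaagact
The core begins 109 bases before the start in C1qb, 130 in C1qc, 56 in Vpreb2 and 80 in Igll1, and these letters are not in the windows of Jchain, Dmkn and Bcl11a. Gene positions given in the text are mostly from GENCODE. In C1qc, Vpreb2 and Bcl11a the RefSeq start lies inside the gene as GENCODE places it. The core of C1qc and of Vpreb2 lies inside the gene by that placement. Dmkn has further listed starts, whose windows also lack the core. Of the 8689 tested genes matched to a promoter 11.4% hold it, and Ms4a7 holds it too. The share was 11.0% of 2661 promoters of genes called higher and 12.5% of 986 promoters of genes called lower. A promoter was matched for 80.8% of the higher and 75.7% of the lower genes, so that the lower genes are too incompletely covered for a comparison, which is void.

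Dendritic cell genes were split, with 5 higher and 7 lower of 17, beside 30.1% higher and 11.9% lower of all tested genes. Their summed level was 1598 to 1773 TPM in T2 libraries against 1607 to 1639 TPM in T1 libraries, ranges that overlap. Pld4, an exonuclease of plasmacytoid dendritic cells, was 3.09, 3.57 and 3.98 TPM in T2 against 25.4, 22.5 and 25.7 TPM in T1 (log2 -2.49), and Cox6a2, an oxidase subunit also known from these cells, averaged 3.96 ± 0.911 TPM in T2 and 16.6 ± 2.003 TPM in T1 (log2 -1.83), and both genes fell. Naaa, a lysosomal amidase, averaged 4.78 ± 1.05 TPM in T2 and 0.528 ± 0.285 TPM in T1, and Wdfy4, needed for cross-presentation, 8.26 ± 0.558 TPM in T2 and 2.66 ± 0.138 TPM in T1. Naaa and Wdfy4 rose, as did Flt3, Bst2 and Clec10a. The median of the list was log2 0.04 and turned to -0.13 after rescaling. Of 9 MHC class II genes 2 rose and 1 fell, beside the same shares of all tested genes. H2-Ab1, the beta chain of I-A, averaged 596 ± 40.4 TPM in T2 and 432 ± 12.3 TPM in T1 (log2 0.46, adjusted p = 0.00188), and H2-Ob, a regulator of peptide loading, 27.0 ± 3.82 TPM in T2 and 11.9 ± 0.602 TPM in T1 (log2 1.11). H2-DMb1, a chain of the peptide loader, fell by 0.46 on the log2 scale with overlapping groups (adjusted p = 0.0494), a call lost without T1 replicate 1 or 3 or T2 replicate 1 or 2 (adjusted p = 0.182, 0.113, 0.129 and 0.123). H2-DMb2 (log2 -0.53, adjusted p = 0.126) and H2-Eb1 (log2 0.14, adjusted p = 0.291) did not pass.

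Mast cell, basophil and eosinophil genes rose in 16 and fell in 4 of 27 tested members, with a median of log2 0.84, although their summed level was lower in T2, at 1159 to 1297 TPM in T2 libraries against 2548 to 2768 TPM in T1 libraries. The largest part of the T1 sum was Cpa3, the mast cell carboxypeptidase, at 418, 347 and 384 TPM in T2 against 2070.5, 1889.6 and 2151 TPM in T1 (log2 -2.41 ± 0.10, adjusted p = 9.11e-09). Cma1, mast cell chymase, was 209, 168 and 176 TPM in T2 against 24.7, 17.0 and 18.4 TPM in T1 (log2 3.15, adjusted p = 3.48e-08). Tpsb2, a mast cell tryptase, was 29.2, 25.6 and 42.9 TPM in T2 against 2.74, 0.272 and 1.45 TPM in T1 (log2 3.85), and Mcpt4, a further chymase, was 7.96, 6.54 and 4.40 TPM in T2, while every T1 library listed 0. Proteases known from mast cells thus moved in opposite directions. In MPP4 of 24 months Cma1, Tpsb2 and Mcpt4 were listed at 0 in every library, while Cpa3 averaged 16.0 TPM in T2 and 119 TPM in T1. In MPP3 of 24 months Gzmb, a granzyme, fell with Cpa3 (20.8 ± 2.25 TPM in T2 and 90.8 ± 3.41 TPM in T1), and so did the basophil genes Mcpt8 and Hdc. The receptor chains Fcer1a and Ms4a2 of the IgE receptor, the interleukin 5 receptor Il5ra and the eosinophil ribonuclease Ear2 rose. Under a filter of 5 TPM 9 rose. Of the 35 listed genes 28 averaged at least 1 TPM in T2 and 18 in T1, Tpsab1, Mcpt1 and Il13 were listed at 0 in every library, and the part of these cells was not tested.

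Red cell genes rose in 18 and fell in 2 of 25 tested members, with a median of log2 0.89 and summed levels of 1939 to 2166 TPM in T2 libraries against 636 to 782 TPM in T1 libraries. The adult beta globin genes, which are near-identical copies whose reads may have been split, led the list, and their rises may not be separate. Hbb-bt was 73.7, 98.6 and 90.6 TPM in T2 against 3.74, 1.98 and 2.44 TPM in T1, and Hbb-b2 was 81.4, 108 and 100.1 TPM in T2 against 4.21, 2.39 and 3.21 TPM in T1 (log2 4.59 and 4.53). Hbb-b1 averaged 19.2 ± 7.83 TPM in T2 and 3.08 ± 0.702 TPM in T1 (log2 2.24). The embryonic genes Hbb-bh1 and Hbb-y, which Bcl11a is known to silence, were listed at 0 in all T2 libraries and at 0 or below 1 TPM in T1. Car1, a carbonic anhydrase of early red cells, averaged 118 ± 12.8 TPM in T2 and 47.3 ± 9.15 TPM in T1 (log2 1.31, adjusted p = 5.13e-05). Klf1, the erythroid master regulator, averaged 4.58 ± 1.52 TPM in T2 and 1.55 ± 0.458 TPM in T1 (log2 1.11), and Epor, the erythropoietin receptor, 1.85 ± 0.609 TPM in T2 and 0.449 ± 0.322 TPM in T1 (log2 0.98). The transferrin receptor Tfrc fell by 0.42 on the log2 scale. Slc4a1, the band 3 protein of late red cells, was 0.0794, 0 and 0 TPM in T2, while every T1 library listed 0. Of the 34 listed genes 26 averaged at least 1 TPM in T2 and 19 in T1, and the part of red cells or their free RNA was not tested.

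Platelet and megakaryocyte genes were mixed, with 8 higher and 5 lower of 18, beside 30.1% higher and 11.9% lower of all tested genes. Pf4, platelet factor 4, was 72.3, 77.4 and 71.5 TPM in T2 against 28.5, 33.2 and 27.5 TPM in T1 (log2 1.29, adjusted p = 8.82e-06). Itga2b, the integrin CD41, was 10.4, 16.2 and 15.7 TPM in T2 against 3.09, 3.09 and 2.85 TPM in T1 (log2 1.89, adjusted p = 1.56e-05), and Ptgs1, cyclooxygenase 1, averaged 10.4 ± 1.502 TPM in T2 and 3.07 ± 0.616 TPM in T1 (log2 1.49). T2 libraries lay above all T1 libraries in these 3 genes. Thbs1, the thrombin receptors F2r and F2rl2, Lat and Itgb3 fell. The summed level was 365 to 389 TPM in T2 libraries against 316 to 343 TPM in T1 libraries.

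B cell genes fell more often than they rose, 8 against 4 of 15 tested, and the list summed to 309.8 to 343 TPM in T2 libraries against 696 to 802 TPM in T1 libraries. Igll1, the lambda 5 chain of the surrogate light chain, was 14.3, 15.5 and 15.3 TPM in T2 against 231, 213 and 229.8 TPM in T1 (log2 -3.81 ± 0.11, adjusted p = 7.49e-10). Vpreb2 and Vpreb1, near copies of each other, encode the other chain of the surrogate. Vpreb2 was 1.18, 2.05 and 0.731 TPM in T2 against 41.2, 42.7 and 35.0 TPM in T1, and Vpreb1 11.984, 12.4 and 11.3 TPM in T2 against 99.953, 93.9 and 95.9 TPM in T1 (log2 -4.17 and -2.92). Vpreb3 averaged 16.2 ± 0.836 TPM in T2 and 148 ± 6.25 TPM in T1 (log2 -3.11). The surrogate light chain was thus low in every T2 library. Ebf1, Blnk and Lef1 fell as well, and Ebf1, the factor that commits cells to the B lineage, averaged 0.39 ± 0.0943 TPM in T2 and 4.73 ± 0.625 TPM in T1. Fcrla, an Fc receptor-like protein of B cells, was 12.2, 9.76 and 8.74 TPM in T2 against 0, 0 and 0.134 TPM in T1 (log2 3.42), and Ms4a1 (CD20), Pou2af1 and Cd72 rose with it. Pax5 was listed at 0 in all T2 libraries.

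The plasma cell and secretory list rose in 15 and fell in 1 of 25 tested members, with a median of log2 0.58 and summed levels of 7111 to 8130.0 TPM in T2 libraries against 4287 to 4310.4 TPM in T1 libraries, a sum of which Jchain makes up the largest change. Mzb1, a chaperone of IgM secretion, was 83.7, 86.9 and 76.6 TPM in T2 against 20.6, 20.4 and 15.7 TPM in T1 (log2 2.07, adjusted p = 5.35e-07). Tnfrsf17, the BCMA receptor of plasma cells, was 4.86, 5.75 and 4.51 TPM in T2 against 0, 0 and 0.183 TPM in T1 (log2 2.51). Sdc1, which encodes CD138, was 4.62, 3.77 and 4.26 TPM in T2 against 0.142, 0.217 and 0.045 TPM in T1 (log2 2.20). Tnfrsf17 and Sdc1 were near 0 in every T1 library and present in every T2 library. Both passed the filter through T2 libraries alone and were bound to differ. Creld2, a protein of the endoplasmic reticulum, averaged 218 ± 19.7 TPM in T2 and 63.5 ± 5.35 TPM in T1 (log2 1.76, adjusted p = 4.25e-07). Prdm1, Derl3, Sec11c, Txndc5, Sdf2l1, Dnajb11 and the chaperones Hspa5 and Hsp90b1 rose too, while Xbp1 and Irf4 did not pass (log2 -0.02 and 0.40). Of the 26 listed genes 26 averaged at least 1 TPM in T2 and 22 in T1. The constant region genes of immunoglobulin Ighg1, Ighg2c, Igha, Ighm and Igkc have no values under these symbols, so they could not be analysed. The part of plasma cells was not tested.

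Lymphoid primed genes were split, with 11 higher and 7 lower of 24. Ly6d, a marker of B-primed lymphoid progenitors (chromosome 15, 74762056 to 74763620), was 138, 178 and 186 TPM in T2 against 46.8, 33.6 and 40.4 TPM in T1 (log2 2.03 ± 0.15, adjusted p = 1.65e-06). Il7r, the interleukin 7 receptor of the same progenitors, was 2.20, 2.01 and 2.54 TPM in T2 against 9.71, 6.52 and 8.04 TPM in T1 (log2 -1.47, adjusted p = 9.13e-05). The 2 genes moved in opposite directions with no overlap of libraries in either. Cd27 averaged 126 ± 26.5 TPM in T2 and 56.0 ± 1.99 TPM in T1 (log2 1.14), and Cd52 461 ± 41.7 TPM in T2 and 947 ± 33.1 TPM in T1 (log2 -1.04). Dntt, Rag2 and Satb1, which act early in lymphoid cells, fell, and Sox4, Lck, Btla and Mef2c rose. Genes of T cells, NK cells and innate lymphocytes fell in 10 and rose in 5 of 21, and without T1 replicate 2 or T2 replicate 2 the increases numbered 3. Apart from Trat1 and Gzmb, Cd7 averaged 2.55 ± 0.11 TPM in T2 and 8.66 ± 1.64 TPM in T1 (log2 -1.43), Klrd1, an NK receptor chain, 2.39 ± 0.0993 TPM in T2 and 7.86 ± 1.12 TPM in T1 (log2 -1.38), and Cd4 0.264 ± 0.209 TPM in T2 and 2.62 ± 0.202 TPM in T1 (log2 -1.53). Cd3e, a defining chain of the T cell receptor complex, was near 0 throughout, at 0.038, 0 and 0 TPM in T2 against 0, 0.0675 and 0 TPM in T1, and the list summed to 2589 to 2859 TPM in T2 libraries against 3179 to 3415 TPM in T1 libraries.

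Of 15 tested E proteins, Id inhibitors and their partners 5 rose and 4 fell in T2 cells, where 30.1% of all tested genes were called higher and 11.9% lower. Tcf3, the E protein E2A of lymphoid development, averaged 19.4 ± 2.44 TPM in T2 and 9.05 ± 0.439 TPM in T1 (log2 1.01, adjusted p = 0.000205). Tal1, Lyl1 and Lmo2, members of a stem and red cell complex, rose by log2 1.30, 0.90 and 1.11. Id1, an inhibitor of E proteins, was 8.63, 7.27 and 7.96 TPM in T2 against 34.5, 26.7 and 31.2 TPM in T1 (log2 -1.82, adjusted p = 2.5e-06), and Id2 fell with it, by 0.66 on the log2 scale.

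Stromal and endothelial genes were few, with 7 of 18 tested, 3 higher and 3 lower, and a summed level of 63.1 to 70.0 TPM in T2 libraries against 99.2 to 107 TPM in T1 libraries. Ly6c1, which blood progenitors also express, was 2.57, 7.05 and 3.61 TPM in T2 against 76.9, 70.6 and 72.6 TPM in T1 and carried most of the T1 sum. Without it, a choice made after seeing the data, the sums were 61.4, 63.0 and 59.5 TPM in T2 against 30.2, 29.1 and 26.5 TPM in T1, higher in every T2 library. Emcn, endomucin of endothelium and stem cells, was 19.6, 14.2 and 20.6 TPM in T2 against 1.89, 0.897 and 1.34 TPM in T1, and Fabp4, a fatty acid binding protein, 16.4, 24.8 and 13.2 TPM in T2 against 1.87, 1.49 and 1.13 TPM in T1. Igfbp7 averaged 5.49 ± 1.23 TPM in T2 and 1.51 ± 0.65 TPM in T1. These rose by log2 3.01, 2.90 and 1.39, while the collagen gene Col1a2 averaged 0.108 ± 0.0863 TPM in T2 and 1.97 ± 0.277 TPM in T1 (log2 -1.42). Col1a1, Col3a1, Pdgfra and Adipoq were listed at 0 in all 6 libraries.

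**Figure D3:**
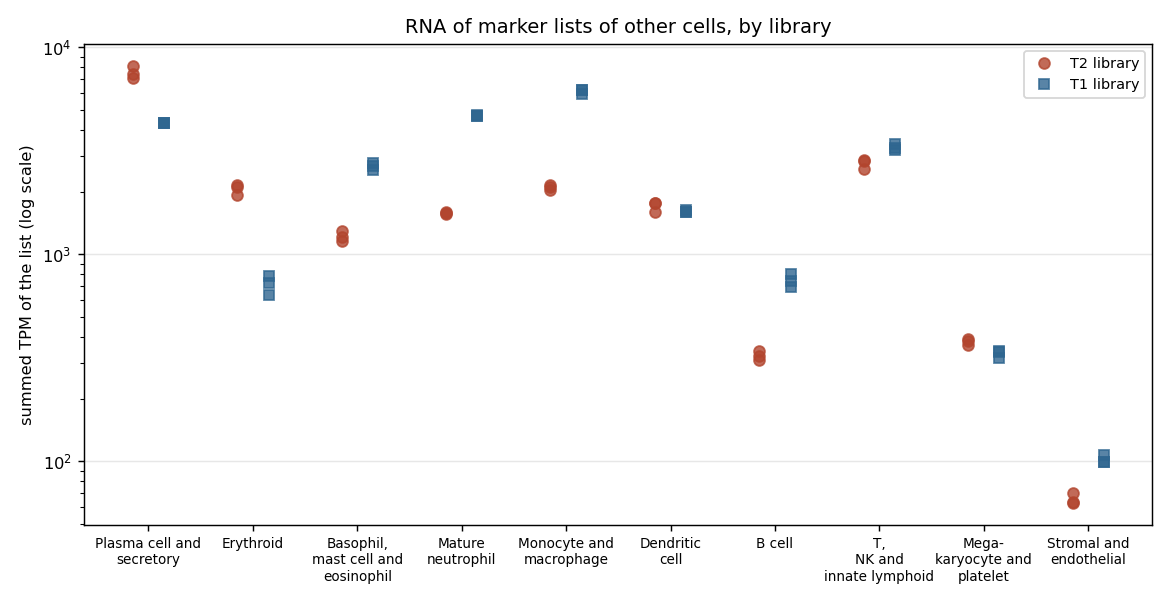
Summed TPM of 10 gene lists in each library on a log axis, with T2 libraries as red circles left of T1 libraries as blue squares. Plasma cell and erythroid sums lie higher in T2 libraries, sums of neutrophil, monocyte and B cell genes lie lower, and the dendritic cell sums overlap.

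Cholesterol synthesis genes rose in 15 and fell in 0 of 20 tested by limma, with 15 higher and 0 lower at an unadjusted p below 0.05, a median of log2 0.65, and 11 higher after rescaling. Sqle, squalene epoxidase, was 18.6, 17.0 and 15.8 TPM in T2 against 5.53, 3.84 and 3.16 TPM in T1 (log2 1.83, adjusted p = 1.76e-05), and every T2 library was above every T1 library. Srebf2, the master regulator of the pathway, averaged 4.32 ± 0.317 TPM in T2 and 0.985 ± 0.264 TPM in T1 (log2 1.43). Stard4, a sterol carrier, rose by log2 1.16. Myc targets and nucleolar genes rose in 17 and fell in 3 of 38 (11 and 3 after rescaling). Myc itself averaged 152 ± 8.74 TPM in T2 and 102 ± 4.53 TPM in T1 (log2 0.57, adjusted p = 0.000839). Gar1 and Fbl, proteins that modify ribosomal RNA, averaged 76.9 ± 4.43 and 220.3 ± 6.96 TPM in T2 against 26.7 ± 3.08 and 95.5 ± 6.16 TPM in T1 (log2 1.49 and 1.20), and Pa2g4 and Rrs1 rose by log2 0.82 and 1.14.

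For several housekeeping families the balance depended on the scale. Cytosolic ribosomal protein genes have many processed copies that can take their reads. Of 78 tested 30 were higher and 1 lower, but 9 were higher and 6 lower after rescaling, and the median turned from log2 0.14 to -0.06. Rpl3, of the large subunit, was 2656, 2627 and 2632 TPM in T2 against 1889, 1946 and 1818 TPM in T1 (log2 0.49), and Rpsa, Rpl8, Rpl17 and Rpl13a rose by log2 0.65, 0.57, 0.56 and 0.49. The family summed to 136726 to 164019 TPM in T2 libraries, lowest in T2 replicate 1, against 134001 to 145820.0 TPM in T1 libraries. Of 74 nuclear genes of oxidative phosphorylation 9 were higher and 4 lower, against 3 and 24 after rescaling. Without T1 replicate 3 these counts were 4 and 0, and without T2 replicate 1 the lower ones were 10. Sdha of complex II and Uqcrfs1 of complex III rose by log2 0.73 and 0.66, whereas the calls of Ndufa10 and Atp5g2 (log2 0.40 and 0.37) were lost after rescaling.

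Translation factors were higher in 14 and lower in 5 of 35, where 30.1% of all tested genes were called higher and 11.9% lower. Eef1g and Eef2, of the elongation step, averaged 762 ± 65.8 and 289 ± 19.1 TPM in T2 against 356 ± 29.4 and 141 ± 14.7 TPM in T1 (log2 1.10 and 1.03), Eif4h and Eif3f rose by log2 1.09 and 0.88, and the initiation factor Eif2s2 fell by 0.73 on the log2 scale. The lower ones numbered 3 without T1 replicate 1 or 3 or T2 replicate 2, and the median of the list turned to -0.06 after rescaling. Splicing factors were higher in 13 and lower in 1 of 46, beside the same shares of all tested genes. After rescaling 8 were higher and 6 lower, and 8 were higher without T1 replicate 1. Srsf9, an SR protein, averaged 300.3 ± 4.58 TPM in T2 and 142 ± 12.7 TPM in T1 (log2 1.08), and Snrnp70, Snrpd3, Ptbp1 and Hnrnpm rose by log2 1.20, 0.78, 0.87 and 0.52. Heat shock and chaperone genes rose in 11 of 23 tested by limma, with 0 lower also at an unadjusted p below 0.05, and 6 were higher and 1 lower after rescaling. Hsp90ab1, a cytosolic chaperone, averaged 2005 ± 20.2 TPM in T2 and 1199.7 ± 27.5 TPM in T1 (log2 0.74), and the mitochondrial pair Hspe1 and Hspd1, neighbours on opposite strands that overlap, rose by log2 0.77 and 0.64, with Hsph1 at 0.82. Of 21 glycolysis genes 8 rose and 2 fell, beside 30.1% higher and 11.9% lower of all tested genes. The lactate dehydrogenases Ldhb and Ldha averaged 73.9 ± 9.64 and 648 ± 11.8 TPM in T2 against 22.3 ± 2.09 and 361 ± 14.8 TPM in T1 (log2 1.68 and 0.84), Hk3, Pfkl and Pkm rose by log2 1.74, 0.94 and 0.62, and Aldoa and Eno1 fell.

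Proliferation genes went both ways. Of 53 tested 14 rose and 14 fell, beside 30.1% higher and 11.9% lower of all tested genes, with a median of log2 -0.04. Those that rose included Mcm3, a subunit of the replication helicase (173 ± 10.6 TPM in T2 and 101 ± 9.44 TPM in T1, log2 0.77), Cdk2 (log2 1.09), E2f1 (log2 1.01), Cdc6, Cdt1, Pcna, Ccnd1 and Ccnd2. Those that fell included cyclin B1 of mitosis, Ccnb1 (78.6 ± 11.2 TPM in T2 and 181 ± 17.8 TPM in T1, log2 -1.20), Nusap1 (log2 -0.79), Mki67, Birc5, Aurka, Tpx2 and Ube2c. The numbers were 7 and 20 after rescaling, and the decreases numbered 7 without T1 replicate 3 and 9 without T2 replicate 2.

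Inflammatory, stress and interferon genes did not share a direction. The share of NF-kappa-B and of immediate early genes called higher was near the 30.1% of all tested genes, and that of interferon genes was below it. In all of these lists the share called lower was above the 11.9% of all tested genes. Of 36 NF-kappa-B and inflammatory genes 11 rose and 7 fell, which became 5 and 10 after rescaling and 6 increases without T1 replicate 1 or T2 replicate 2. Ccl4, a macrophage inflammatory chemokine, was 590.1, 778 and 796 TPM in T2 against 3309, 3213 and 3165 TPM in T1 (log2 -2.17 ± 0.11, adjusted p = 8.99e-08). Ptgs2, cyclooxygenase 2, averaged 3.76 ± 1.03 TPM in T2 and 26.8 ± 3.77 TPM in T1 (log2 -2.56), and Ccl5 28.7 ± 0.783 TPM in T2 and 69.5 ± 5.61 TPM in T1 (log2 -1.24). Cxcl2 and Ier3, also targets of NF-kappa-B, rose by log2 1.34 and 0.90. Immediate early genes, which handling can raise, numbered 28, of which 8 were higher and 9 lower, against 5 and 12 after rescaling. Dusp2 and Ier5 rose by log2 1.18 and 1.22, and Klf6 and Atf3 fell by 0.80 and 0.95 on the log2 scale, with Nr4a1 at -0.78. Fos, the partner of Jun in AP-1, averaged 901 ± 60.8 TPM in T2 and 844 ± 30.7 TPM in T1 (log2 0.09, adjusted p = 0.424). Of 33 interferon response genes 6 rose and 9 fell, against 2 and 15 after rescaling, and the increases numbered 2 without T1 replicate 3. Ifi27l2a was 24.1, 58.4 and 44.7 TPM in T2 against 174, 187 and 171 TPM in T1, with T2 replicate 1 lowest, and Ifitm3, Igtp and Iigp1 fell by 0.71, 0.79 and 0.85 on the log2 scale, while Bst2 rose by log2 0.76.

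Targets of p53 and genes of apoptosis moved singly. Of 21 p53 and DNA damage genes 6 rose and 7 fell, beside 30.1% higher and 11.9% lower of all tested genes. Plk2, a polo-like kinase, averaged 4.05 ± 0.584 TPM in T2 and 21.8 ± 1.06 TPM in T1 (log2 -2.18, adjusted p = 8.72e-07). Perp averaged 5.30 ± 1.10 TPM in T2 and 24.4 ± 2.34 TPM in T1 (log2 -2.02), and the death receptor Fas 2.22 ± 1.15 TPM in T2 and 14.9 ± 1.36 TPM in T1 (log2 -2.36). The nuclease Aen rose by log2 1.20 and Bax, a killer of the Bcl2 family, by 0.95 (adjusted p = 4.44e-05). In the Bcl2 family 7 of 15 rose and 2 fell, with Bid, Bcl2a1b and Bcl2l1 at log2 0.91, 1.03 and 0.85 and Pmaip1, which encodes NOXA, at -1.28. After rescaling 4 were higher and 4 lower, and the increases numbered 4 without T1 replicate 1 or 3.

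**Figure D4:**
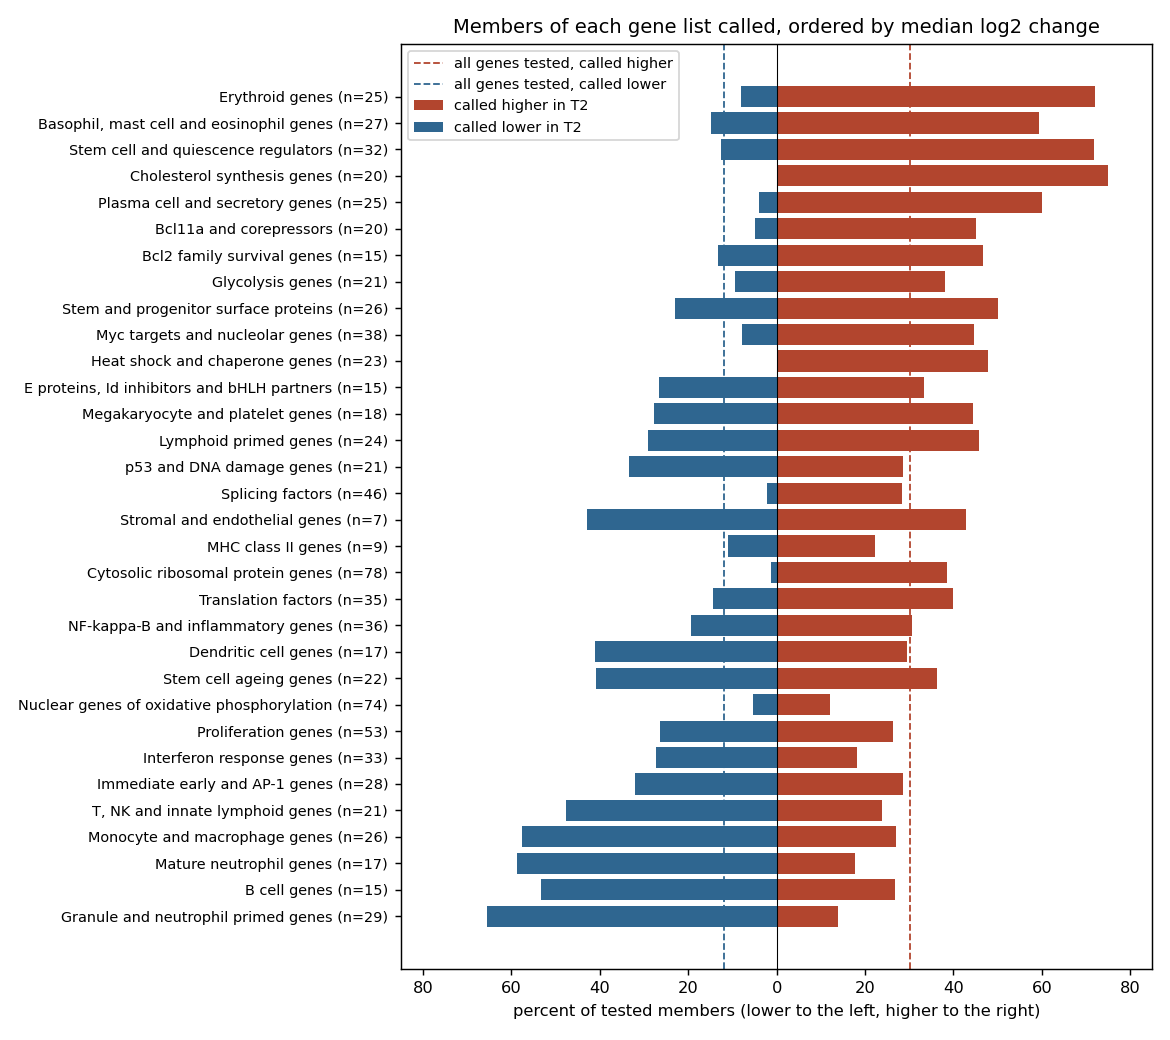
Percent of the tested members of each of 32 gene lists called higher (red, to the right) or lower (blue, to the left) in T2 cells, ordered by the median log2 change, with the share over all genes tested as dashed lines (30.1% and 11.9%). Erythroid genes have the highest median at log2 0.89 and granule genes the lowest at -1.05.

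Whether the T2 and T1 step was larger at 24 than at 3 months was tested as the difference of the 2 log2 changes over 10445 genes tested in both tables of WTiMOS MPP3. The step was more positive at 24 months in 1246 genes (11.9%) and more negative in 654 (6.26%). After rescaling 941 and 871 were called. Without T1 replicate 3 of 24 months the counts were 824 and 417. Each table was deposited on its own, so steps within tables were compared and a level set across them is a description. The Y-linked sum was 33.8, 38.4 and 58.5 TPM in T2 against 64.2, 76.6 and 78.9 TPM in T1 at 3 months, where both groups held it, so the difference in sex-linked RNA stands with age and cannot be told apart from it.

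Bcl11a had the larger step at 24 months, with log2 1.73 against 0.78 at 3 months (difference 0.95 ± 0.21, adjusted p = 0.00281). Ly6d, which rose in T2 cells at 24 months, was lower in T2 cells at 3 months, at 12.2, 11.2 and 9.16 TPM in T2 against 86.8, 69.3 and 86.3 TPM in T1 (log2 -2.79), a difference of 4.82 ± 0.22 (adjusted p = 3.32e-13). Ctss, cathepsin S of antigen-presenting cells, likewise changed by log2 0.49 at 24 months and -2.19 at 3 months (adjusted p = 6.98e-09). Gstm1 fell at both ages but by more at 24 months, with a difference of -2.29 (adjusted p = 1.41e-10), and Dmkn, at 4.69, 4.87 and 4.53 TPM in T2 against 97.2, 103 and 116 TPM in T1 of 3 months, had a difference of -2.68 (adjusted p = 8.36e-09). Cdk5rap1, which modifies transfer RNA, was 7.83, 5.80 and 8.69 TPM in T2 against 61.2, 62.1 and 68.9 TPM in T1 at 24 months and changed by log2 -0.06 at 3 months (adjusted p = 1.1e-08). H2afy, the histone macroH2A1, averaged 901 ± 51.0 TPM in T2 and 368 ± 22.0 TPM in T1 at 24 months, a step of log2 1.29 against -0.21 at 3 months (adjusted p = 1.3e-08). Jchain was not tested at 3 months, where it was listed at 0, 0 and 0.442 TPM in T2 and 0, 2.42 and 0.0271 TPM in T1.

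Among the lists, granule and neutrophil primed genes had a more negative step at 24 months in 17 of 29 and a more positive one in 0 by limma, also at an unadjusted p below 0.05, with a median step of log2 -1.05 at 24 months and -0.24 at 3 months. Plasma cell and secretory genes had the more positive step in 13 of 21, Creld2 among them (difference 1.85, adjusted p = 1.36e-08). Cholesterol genes had it in 10 of 20. Ribosomal protein genes had it in 43 of 78, and in 35 after rescaling, with a median step of log2 0.14 at 24 months and -0.23 at 3 months. Monocyte and macrophage genes had a median step of log2 -0.70 at 24 months and -1.31 at 3 months, with 11 of 26 more positive and 3 more negative at 24 months, among the 11 Ly86 (log2 -3.24 at 24 months and -3.91 at 3 months, adjusted p = 0.0414). Of dendritic cell genes 7 of 15 had the more positive step at 24 months, such as Pld4 (log2 -2.49 at 24 months and -4.73 at 3 months, adjusted p = 4.39e-08). Trat1, which fell by 5.27 on the log2 scale at 24 months, had a step of log2 -1.11 at 3 months (adjusted p = 9.87e-07).

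In the comparison with MPP4 of the same age, 10609 genes were tested in both tables. The step of MPP3 was the more positive in 482 (4.54%) and the more negative in 1873 (17.7%). After rescaling 1165 were above and 762 below, so this balance depended on the scale. The median step of all genes was log2 0.18 in MPP3 and 0.43 in MPP4, and the median of the differences was -0.21. Without T1 replicate 3 the counts were 273 and 1192. The step of Bcl11a was log2 1.73 in MPP3 and 1.37 in MPP4, and the difference missed the threshold (0.36 ± 0.20, adjusted p = 0.201). Jchain rose in both, to 3080.0, 2259 and 2392 TPM in T2 of MPP3 and 23.2, 25.6 and 22.3 TPM in T2 of MPP4, against 14.5, 11.9 and 13.3 TPM in T1 of MPP3 and 0.821, 0.8 and 1.29 TPM in T1 of MPP4, and its step was larger in MPP3 by 3.84 ± 0.20 (adjusted p = 1.68e-11). Ly6d again went the other way in MPP4 (log2 -1.68, difference 3.71, adjusted p = 1.68e-11).

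Granule and neutrophil primed genes had the more negative step in MPP3 in 17 of 27 and the more positive one in 0 by limma, with 1 at an unadjusted p below 0.05, and in 12 and 2 after rescaling. Gstm1 changed by log2 -3.12 in MPP3 and 0.18 in MPP4 (adjusted p = 8.97e-13), and Mgst1 by -2.39 and -0.19 (adjusted p = 9.88e-10). Clec12a changed by log2 -3.96 in MPP3 and -1.19 in MPP4 (adjusted p = 6.66e-10), and Gapt, an adaptor of myeloid and B cells, was 2.04, 1.38 and 1.53 TPM in T2 against 20.9, 16.9 and 17.7 TPM in T1 of MPP3 (log2 -2.88) with a step of log2 0.40 in MPP4 (adjusted p = 4.99e-09). B cell genes had the more negative step in MPP3 in 6 of 9 (5 after rescaling), with Vpreb3 at log2 -3.11 in MPP3 and 1.91 in MPP4 (adjusted p = 4.16e-07) and Vpreb2 at -4.17 and 0.12 (adjusted p = 1.06e-06). Both were hardly present in MPP4, where Vpreb2 averaged 1.07 ± 0.11 TPM in T2 and 1.09 ± 1.01 TPM in T1. Vpreb3 averaged 3.94 ± 2.14 TPM in T2 and 0.253 ± 0.305 TPM in T1 of MPP4. Their MPP4 steps thus rest on values near the floor. Hbb-bs had a larger step in MPP3 (difference 5.59, adjusted p = 5.89e-05), as had Prg2 (difference 3.30, adjusted p = 5.15e-08). Hbb-bs and Prg2 passed the filter in MPP3 through T2 libraries alone. Ribosomal protein genes had the more positive step in MPP3 in 51 of 78 (63 after rescaling), with median steps of log2 0.14 in MPP3 and -0.28 in MPP4. Cholesterol genes had median steps of log2 0.65 in MPP3 and 0.97 in MPP4. Trat1 (difference 0.47 ± 0.26, adjusted p = 0.211) and Hlf (difference -0.07 ± 0.22, adjusted p = 0.844) did not pass.

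**Figure D5:**
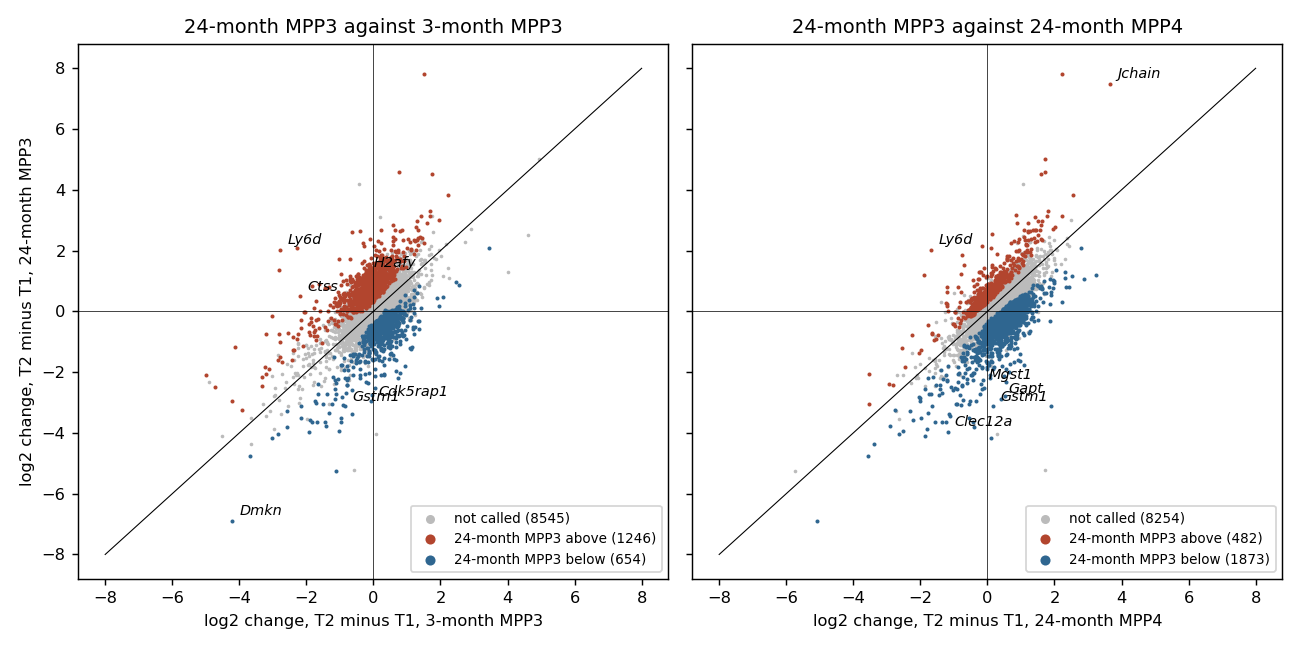
Log2 change of T2 minus T1 in 24-month MPP3 (vertical axis) against the same in 3-month MPP3 (left) and 24-month MPP4 (right), 1 point per gene, in red where the step of 24-month MPP3 was called above and in blue where called below. Points on the diagonal have equal steps, and Ly6d lies in the upper left of both panels, higher in T2 cells of 24-month MPP3 and lower in T2 cells of both other populations.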

How the data were processed

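RNA of sorted bone marrow progenitors was sequenced after a low-input cDNA kit, per the labels' protocols. TPM values were deposited by the authors as 1 table for each age, genotype and population. The submitters' processing notes name HISAT2, StringTie, featureCounts, DESeq2 and the build mm10, without versions or roles, and the read depth and counts behind the TPM are unknown. The TPM were used as deposited and transformed to log2(TPM + 1). Genes with at least 1 TPM in 3 of the 6 libraries were kept and those on X or Y left out, with positions from GENCODE vM21 on GRCm38 for 23376 of 24421 symbols (95.7%), from RefSeq for 950, and none for 95. limma 3.58.1 in R 4.3.3 was fitted to the 6 libraries of the table with a mean per group and trended, robust moderation, and p-values were adjusted over all genes tested (Benjamini-Hochberg). Differences of steps were taken between separately fitted tables, with Satterthwaite degrees of freedom.

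Named were Bcl11a, up to 14 genes each way with the largest change among called genes without overlap and with a higher group of at least 5 TPM, the 5 list members with the lowest p in every list, and, for each comparison of steps, the 6 genes with the lowest adjusted p, leaving out predicted genes, RIKEN clones, pseudogenes and genes of X and Y. Some genes that this rule names are not reported here. Other genes given with values were chosen after their values were seen, as were the promoters shown. The members and the 32 lists were chosen with earlier results of these data known, so counts over a list are a description. Alternatives were a pseudocount of 0.1, no filter and a filter of 5 TPM, median-ratio rescaling, subtraction of the GC content and length trend, a replicate block, plain moderation, X and Y genes kept, a fit of all 30 libraries, and each library left out. Overlapping genes cannot be told apart where the counting did not use strand, and its strand setting is not given here. Among genes named, this touches Dpm1-adnp, Smarcc1, Cox6a2, Wdfy4, Cd52, Cd27, Vpreb1, Lyl1, Nusap1, Cdk2, Rpl3, Hk3, Hspe1, Hspd1, Igtp, Bid, Eif2s2, Snrpd3, Ptbp1, Hnrnpm and Igfbp7.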

Additional observations from a re-analysis of the deposited data

Results flagged for a closer look

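The step between T2 and T1 cells differed between populations. Between 24 and 3 months in MPP3 it differed in 1900 genes, and between MPP3 and MPP4 at 24 months in 2355, by the test of the difference itself. The genes of smallest adjusted p for age were Ly6d (difference of log2 steps 4.82), Ctss (2.68), H2afy (1.503), Gstm1 (-2.29), Dmkn (-2.68) and Cdk5rap1 (-2.90). Those for the population were Jchain (3.84), Ly6d (3.71), Gstm1 (-3.30), Gapt (-3.28), Clec12a (-2.77) and Mgst1 (-2.20). Of 10445 genes tested at both ages, 73 were called higher in T2 at 24 months and lower at 3 months, and 39 the reverse. At both ages 527 were called higher and 306 lower. Of 10609 genes tested in MPP3 and MPP4, 35 were called higher in T2 of MPP3 and lower in MPP4, and 215 the reverse. In both populations 2680 were called higher and 372 lower. These counts were not rescaled, and the median step was log2 0.18 in MPP3 and 0.43 in MPP4. In MPP4 of 24 months the Y-linked sum was 169, 158 and 159 TPM in T2 against 0.0607, 0.0722 and 0.184 TPM in T1, a split like that in MPP3, while both groups of MPP3 at 3 months held it.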

How the results depend on the processing

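No gene named by the rule above changed sign under the alternatives run, and 164 of 168 called ones kept their call in every alternative that tested them. Apart from Bcl11a these genes were picked for a large change or a small p, so their stability was largely bound to follow. Of the 170 named genes 159 were tested under the filter of 5 TPM and 167 with the trend on GC content and length removed. The exceptions among the called ones were H2-DMb1, Ndufa10, Atp5g2 and Dpm1-adnp. Genes given outside the rule, such as Ncor1, are not part of these counts. Of 64 counts of list members 30 stayed within 1.5 times in every alternative. Genes called numbered 3374 to 4978 with each library left out. The split depended on scaling. After median-ratio rescaling 2061 were higher and 2035 lower, with the trend on GC content and length removed 2286 and 2043, and with that and the replicate block 2134 and 1970, and the cause was not tested. For the difference between 24 and 3 months, leaving out a library gave 1241 to 2263, 824 to 1469 above and 417 to 794 below, all lowest without T1 replicate 3, and the smaller degrees of freedom, added after seeing the data, gave 1376. For MPP3 and MPP4 it gave 1465 to 2799, 273 to 636 above and 1192 to 2163 below, again lowest without T1 replicate 3, rescaling gave 1165 above and 762 below, and the smaller degrees of freedom 1634. With 1 library left out its group holds 2, so these fits rest on a spread estimated from 5 libraries. Deviations of same-numbered T2 and T1 libraries correlated at -0.11, 0.04 and -0.05, and 1 of the 3 T2 libraries deviated most with the T1 library of its own number. Taken around means of 3 libraries, these values cannot tell whether the numbers pair the samples. With the replicate block 4280 genes were called, 3049 higher and 1231 lower, 1905 for the difference of ages and 1868 for that of populations. Depth is unknown, so differences near 1 TPM are the least certain.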

Other observations

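Rn45s, the ribosomal RNA precursor, was 779.6, 1217 and 1017 TPM in T2 against 281, 335 and 291 TPM in T1, and the nuclear RNA Malat1 was 2222, 2232 and 1899 TPM in T2 against 3653, 3822 and 4234 TPM in T1. Neither gene had overlapping groups. Their part in the other differences was not tested.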
